A study of Mus musculus with 8 samples.

Results

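Acyl-CoA synthetases are the enzymes that join a fatty acid to coenzyme A, and they are grouped by the length of the chain they take. The 10 genes described here are the short chain synthetases Acss1, Acss2 and Acss3, the medium chain synthetases Acsm3 and Acsm5, and the long chain synthetases Acsl1, Acsl3, Acsl4, Acsl5 and Acsl6. They are 10 of 21115 probe sets, each of which stands for 1 gene number, and they were picked by name with earlier results of the same comparison in view, Acss3 because it stood out there. Their differences between genotypes are therefore given as a description and not as support for one another. Platform annotation named 9 of them, and Acsl1 was found by its gene number, 14081, which is its probe set identifier.

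The knockout mice were 4 GRBATKO animals, in which the glucocorticoid receptor gene Nr3c1 was knocked out in brown adipose tissue (BAT), and the comparison mice were 4 controls, called wild type in the sample labels and Flox in the design text. All 8 mice were 16 to 20 weeks old when cold exposure began and spent 1 week at 5 °C, so the cold is shared by both genotypes and no warm-housed mice were analysed here. The sources used here do not name the recombinase that deleted the gene or what drives it. RNA was hybridised to Affymetrix Mouse Gene 1.1 ST arrays, and every value below is a log2 intensity of 1 probe set on 1 array, or a difference of such values (GRBATKO minus control). A difference of 1 on this scale is a doubling.

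Nr3c1 itself read 7.81, 7.72, 7.61 and 7.83 in GRBATKO 1 to 4, against 8.56, 8.67, 8.68 and 8.51 in control 1 to 4. Its difference was -0.86 (SE 0.08, limma adjusted p = 0.00697), and all 8 arrays stood on the side their labels give. The call was lost in 4 of 19 alternative settings, with limma adjusted p between 0.0525 and 0.157. The sources used here do not say where its probes lie relative to the deleted part. Ucp1, the uncoupling protein that defines brown fat, was the brightest or second brightest probe set of each of the 8 arrays, although the extraction protocol names peritoneal macrophages. Macrophage markers (10 genes) averaged 5.40 to 5.90 in GRBATKO and 5.27 to 5.75 in control arrays. GRBATKO arrays lay in array rows C and D and control arrays in rows A and B, so genotype and row cannot be told apart. The labels number the mice without saying how tissue was collected from each, so the errors below measure the spread between these samples and may be partly technical. In whole tissue, fewer cells of a type and less RNA per cell cannot be told apart.

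A synthetase first uses ATP to form an acyl-adenylate and then transfers the acyl group to coenzyme A. Only the activated form can be oxidised, elongated, built into lipid or used to acylate proteins, so the enzyme's chain preference and its place in the cell help to set where a fatty acid goes. Short chain members act on acetate and propionate, medium chain members are mitochondrial matrix enzymes, and long chain members sit on the endoplasmic reticulum, lipid droplets and outer mitochondrial membrane. Brown fat in the cold burns long chain fatty acids released from its droplets and taken up from blood, and Acsl1 is the synthetase known to be needed there for fatty acid oxidation and heat.

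Of the 3 members whose genotypes did not overlap (Acss3, Acsm3 and Acss2), the promoters of 2 are shown, as no promoter entry was available for Acss3. Acss2 was higher and Acsm3 lower in GRBATKO tissue, and a link of promoter letters to direction was not tested. Each run is the 250 bases before the annotated start, from RefSeq on build GRCm38.p6, plus strand: Acss2 at chr2:155517793-155518042 and Acsm3 at chr7:119760673-119760922. Capitals mark the CCAAT box (CCAAT) and the GC box (CCGCCC), each searched on both strands; the motifs do not overlap here.
Acss2: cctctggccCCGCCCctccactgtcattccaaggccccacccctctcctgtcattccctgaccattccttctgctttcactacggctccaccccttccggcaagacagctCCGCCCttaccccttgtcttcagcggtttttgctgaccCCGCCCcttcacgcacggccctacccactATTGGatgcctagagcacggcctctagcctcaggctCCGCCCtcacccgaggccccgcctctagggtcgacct
Acsm3: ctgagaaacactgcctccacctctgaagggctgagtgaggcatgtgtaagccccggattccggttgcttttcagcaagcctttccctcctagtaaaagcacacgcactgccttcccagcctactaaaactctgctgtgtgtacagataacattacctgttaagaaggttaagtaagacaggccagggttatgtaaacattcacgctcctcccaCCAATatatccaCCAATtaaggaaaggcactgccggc

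The Acss2 window is 64.0% G and C and holds 4 GC boxes, and 1 CCAAT box that reads on the minus strand. The Acsm3 window is 49.2% G and C, with no GC box and 2 CCAAT boxes, against a median of 52.4% G and C over all 32851 windows of this length. A GC box is found in 32.7% and a CCAAT box in 33.8% of those windows. Of 12 member windows, 8 hold a GC box and 8 a CCAAT box. The Acsl3 window holds 5 GC boxes and 1 of the Acsl1 windows holds 4, and both genes had overlapping groups. The palindromic glucocorticoid response element, searched on both strands as AGAACA and TGTTCT with any 3 bases between them, is in none of the 12 windows of the 9 members with an entry in the table (all but Acss3), and in 0.00913% of all windows. Its single arm AGAACA, also searched on both strands, is in 2 of the 12 member windows, those of Acsl5 and of 1 Acsl6 start, and in 16.1% of all. These matches describe letters in short windows and say nothing of receptor binding.

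Acss3, a mitochondrial enzyme that prefers propionate in work on rodent liver, was the member with the largest difference between genotypes in either direction. It read 8.89, 8.85, 8.87 and 8.73 in GRBATKO 1 to 4, against 9.29, 9.72, 9.64 and 9.48 in control 1 to 4. Every GRBATKO array lay below every control array, with a gap of 0.41 between the groups, and the GRBATKO values spanned only 0.15, against 0.43 in the controls. The means were 8.83 ± 0.07 in GRBATKO and 9.53 ± 0.19 in control tissue (SD, n = 4 each), a difference of -0.70 (SE 0.10), which puts the GRBATKO level at 61.7% of control. Within the arrays of array column 5 the difference was -0.59, and within those of column 7 it was -0.81, with 2 arrays of each genotype in each column.

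The other mitochondrial short chain enzyme, Acss1, which makes acetyl-CoA from acetate in the matrix, was lower by less. It read 10.28, 10.20, 9.99 and 10.14 in GRBATKO 1 to 4, against 10.33, 10.74, 10.54 and 10.22 in control 1 to 4. The groups overlapped: control 4 lay below GRBATKO 1, and the other 3 GRBATKO arrays lay below all controls. The difference was -0.30 (SE 0.12). Without control 2, its highest array, the difference was -0.21, and without control 1 and control 4, its lowest controls, it was -0.49.

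Acss2 makes acetyl-CoA from acetate in the cytosol and nucleus, feeding fatty acid synthesis and histone acetylation, and is a known target of the sterol-regulated SREBP transcription factors. It stood on the other side, at 11.47, 11.40, 11.42 and 11.28 in GRBATKO 1 to 4, against 11.17, 11.05, 11.11 and 11.15 in control 1 to 4. All 4 GRBATKO arrays lay above all 4 control arrays, by at least 0.115. The means were 11.39 ± 0.08 in GRBATKO and 11.12 ± 0.05 in control tissue (SD, n = 4 each), a difference of 0.27 (SE 0.07), or 1.21-fold. The 3 short chain genes thus did not share 1 direction, with 2 lower and 1 higher mean.

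**Figure D1:**
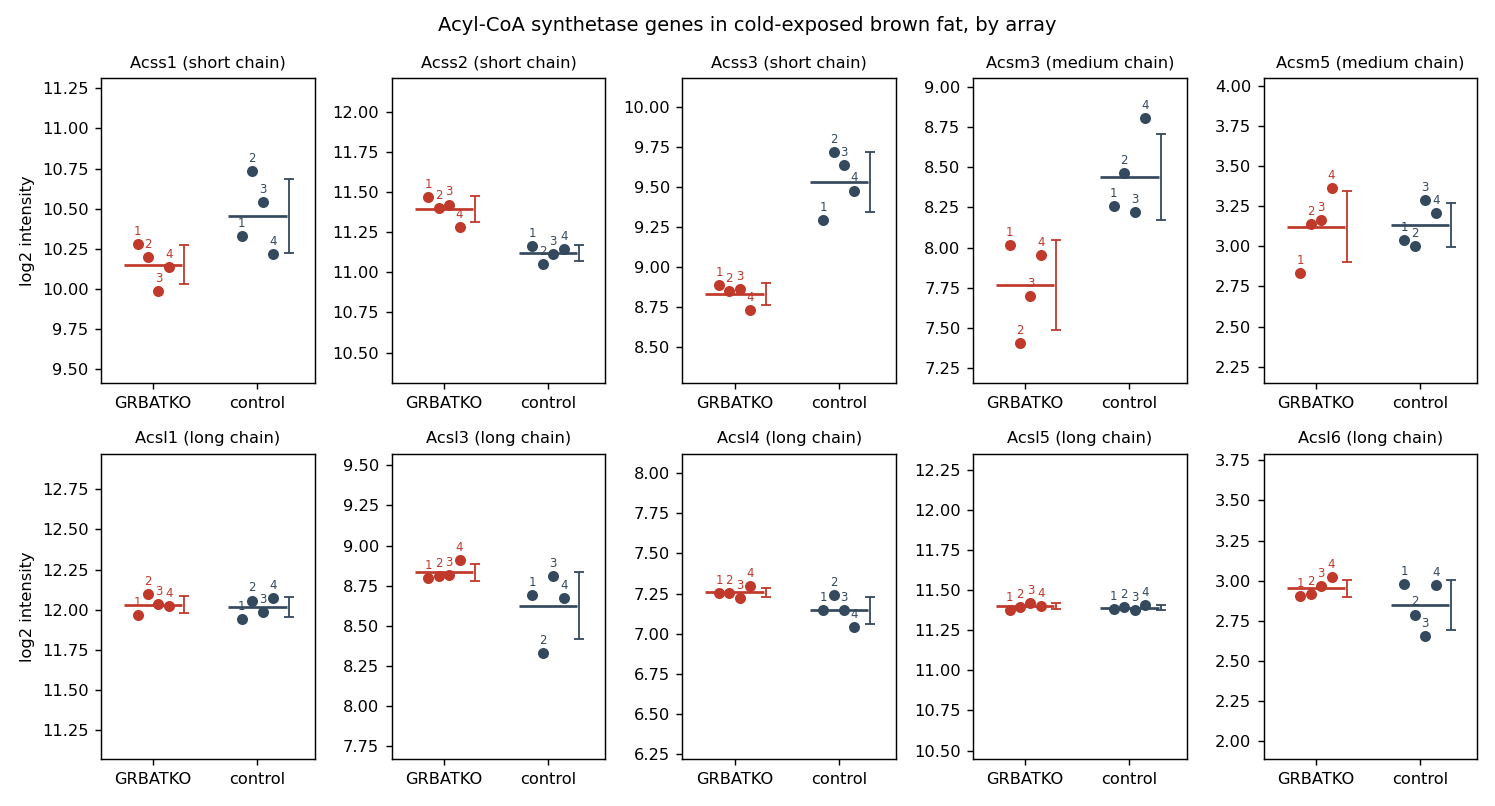
Log2 intensity of the 10 acyl-CoA synthetase genes on each array, GRBATKO left and control right, with replicate numbers beside the points, lines at the group means and bars for the SD (n = 4 each). All panels span the same height on the log2 scale. Acss3 and Acsm3 lie lower and Acss2 higher in all 4 GRBATKO arrays, while Acsl1 and Acsl5 lie level in both genotypes.

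Acsm3, a mitochondrial medium chain synthetase, differed by almost as much as Acss3 but with a wider spread. It read 8.01, 7.40, 7.70 and 7.95 in GRBATKO 1 to 4, against 8.26, 8.47, 8.22 and 8.81 in control 1 to 4. The groups did not overlap, and the gap between them was 0.21. The means were 7.77 ± 0.28 in GRBATKO and 8.44 ± 0.27 in control tissue (SD, n = 4 each), a difference of -0.67 (SE 0.16), at 62.8% of control. The difference was -0.39 within array column 5 and -0.96 within column 7. It was -0.55 without GRBATKO 2, the lowest array, and also -0.55 without control 4, the highest. GRBATKO 2 held the highest lymphocyte marker mean (9 markers, 5.12, against 4.0 to 4.12 in the other GRBATKO and 4.07 to 4.39 in control arrays). The part of those cells in the result was not tested.

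Acsm5, the other medium chain member, read 2.83, 3.14, 3.16 and 3.36 in GRBATKO 1 to 4, against 3.04, 3.0, 3.29 and 3.21 in control 1 to 4. The genotypes overlapped and the difference was -0.01 (SE 0.12). Intensities this low lie near the 25th percentile of each array, which ran from 2.88 to 2.90 in GRBATKO and from 2.84 to 3.05 in control arrays. Detection calls were not analysed here, so the distance of Acsm5 from background is unknown.

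The Acsm genes lie in 1 cluster on chromosome 7, in the order Acsm5, Acsm2, Acsm1, Acsm4 and Acsm3, with Thumpd1 before Acsm3 and Eri2 after it among the named genes. The differences were 0.08 (SE 0.12) for Acsm2, -0.17 (SE 0.09) for Acsm1 and 0.02 (SE 0.16) for Acsm4, each with overlapping groups and group means between 2.01 and 3.26. Eri2, an exonuclease gene, differed by 0.23 (SE 0.12), Thumpd1, an RNA-binding protein gene, by 0.13 (SE 0.11), and Pdilt, at the other end, by -0.06 (SE 0.09). Within the cluster, Acsm3 was the 1 gene whose genotypes did not overlap. The other Acsm genes had intensities near or below the 25th percentile of each array, so a difference could be missed there. On chromosome 10, the neighbours of Acss3 all had overlapping groups. Ccdc59 and Ppfia2 on one side differed by 0.22 (SE 0.11) and 0.21 (SE 0.18). Lin7a and Myf5 on the other differed by 0.08 (SE 0.11) and 0.03 (SE 0.07). Group means in GRBATKO and control tissue were 7.23 and 7.01 for Ccdc59 and 4.07 and 3.98 for Lin7a. They were 3.13 and 2.92 for Ppfia2 and 2.55 and 2.52 for Myf5, near or below the 25th percentile of each array. A difference of these 2 genes could be missed. With 1 array left out, Acsm1 ran from -0.22 to -0.094, Eri2 from 0.14 to 0.31, Thumpd1 from 0.052 to 0.19, Ppfia2 from 0.074 to 0.40 and Lin7a from 0.014 to 0.17.

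The 5 long chain genes differed by 0.01 to 0.21, all with overlapping groups. Acsl1, the main long chain synthetase of fat cells, read 11.97, 12.10, 12.04 and 12.02 in GRBATKO 1 to 4, against 11.94, 12.06, 11.99 and 12.07 in control 1 to 4. The arrays of both genotypes interleave, and the difference was 0.02 (SE 0.07), with a 95% interval from -0.14 to 0.17. Acsl5, which sits on mitochondria and endoplasmic reticulum, was the most even member, with GRBATKO arrays from 11.38 to 11.42 and control arrays from 11.38 to 11.41. Its difference was 0.01 (SE 0.06), with an interval from -0.13 to 0.14. An interval of this width does not show that Acsl1 and Acsl5 were alike in both genotypes. It does not reach the difference of Acss3, but Acss3 was picked because it stood out, so no comparison is drawn.

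Acsl3, found on lipid droplets and endoplasmic reticulum, read 8.80, 8.81, 8.81 and 8.91 in GRBATKO 1 to 4, against 8.69, 8.33, 8.81 and 8.67 in control 1 to 4. Control 3 lay among the GRBATKO arrays and control 2 well below all others. The difference was 0.21 (SE 0.10), with an interval from -0.03 to 0.44, and it was 0.11 without control 2. It was 0.05 within array column 5 and 0.36 within column 7, which holds control 2.

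Acsl4, which prefers arachidonic acid, read 7.25, 7.26, 7.22 and 7.30 in GRBATKO 1 to 4, against 7.15, 7.24, 7.15 and 7.04 in control 1 to 4. GRBATKO 1, 2 and 4 stood above all controls, and GRBATKO 3 below control 2. The difference was 0.11 (SE 0.07), with an interval from -0.04 to 0.27. Acsl6, best known from brain, where it favours docosahexaenoic acid, ran from 2.91 to 3.02 in GRBATKO and from 2.65 to 2.98 in control arrays. Its intensities are as low as those of Acsm5, and the difference of 0.10 (SE 0.09) had an interval from -0.10 to 0.30 and was 0.039 without control 3.

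By chain length, the median difference was -0.30 over the 3 short chain genes, -0.34 over the 2 medium chain genes and 0.10 over the 5 long chain genes. Over all 21115 probe sets the median was -0.0022. All 5 long chain genes had a higher mean in GRBATKO tissue, by 0.01 to 0.21, where 49.4% of all probe sets had one. Among them Acsl1 and Acsl5 differed by only 0.02 and 0.01, Acsl1 took either sign with single arrays left out, and Acsl6 had low intensities. These classes hold few genes that were picked knowing the results, and no difference between classes was tested. None of the 10 members passed an adjusted p of 0.05 in limma over all probe sets, as 0.0237% of all probe sets did (0.00474% higher and 0.0189% lower), and 4 members had an unadjusted p under 0.05, against 8.62% of all. The groups did not overlap in 3 of the 10, against 5.64% of all probe sets; since the members were picked on this contrast, nothing is read from these shares. Acss3 came nearest, with limma adjusted p = 0.0884 and 11 probe sets of smaller p. It passed in 3 of 19 alternative settings, with adjusted p from 0.0147 to 0.477 over all of them, and its difference ran from -0.84 to -0.63.

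**Figure D2:**
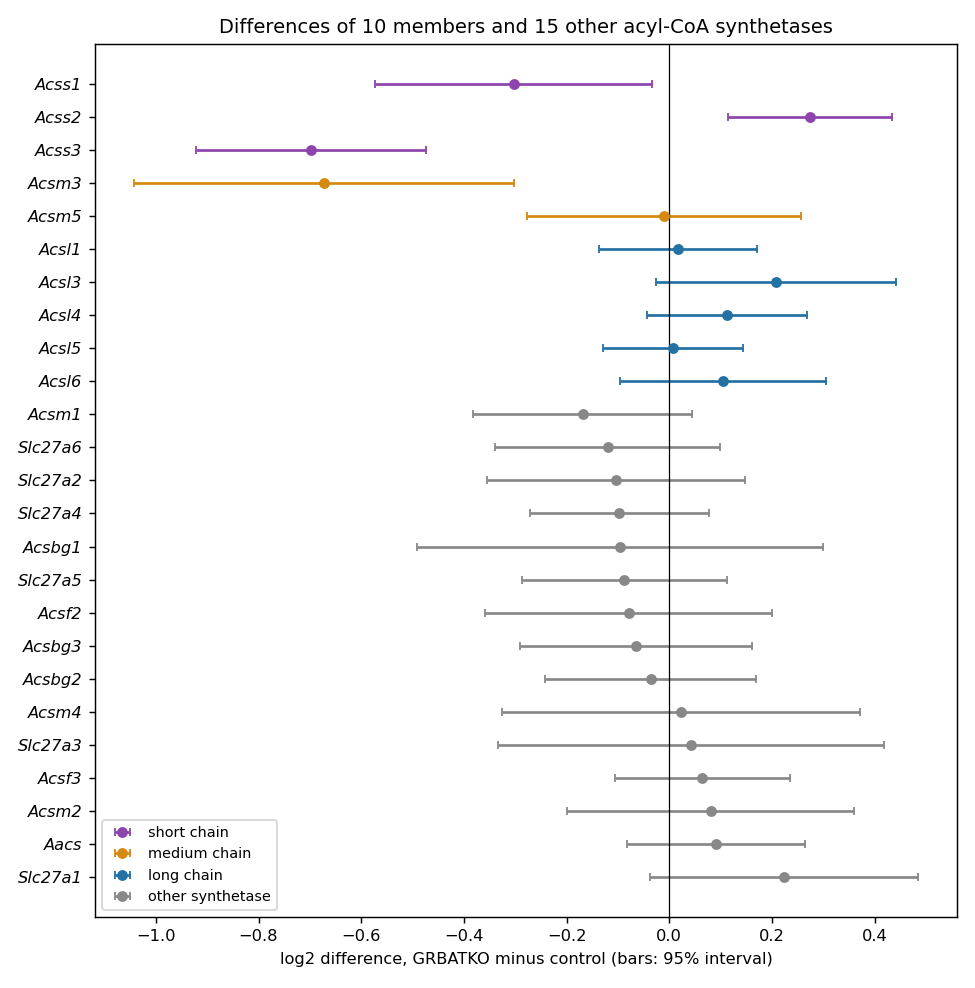
Log2 difference (GRBATKO minus control) with its 95% interval for the 10 members, coloured by chain length, and for 15 other acyl-CoA synthetases in grey. Acss3 at -0.70 and Acsm3 at -0.67 lie apart to the left, and the 15 others lie between -0.17 and 0.22. Among those 15, the Acsm and Acsbg genes and Slc27a3, Slc27a5 and Slc27a6 had low group means (2.01 to 3.60), where a difference could be missed.

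Leaving out each array in turn moved Acss3 between -0.78 and -0.64, Acsm3 between -0.75 and -0.55, Acss1 between -0.38 and -0.21 and Acss2 between 0.25 and 0.31. None of these 4 changed sign with any single array left out. Acsl3 moved between 0.11 and 0.27 and Acsl4 between 0.08 and 0.15. Acsl1 and Acsm5, whose differences were close to 0, took either sign.

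**Figure D3:**
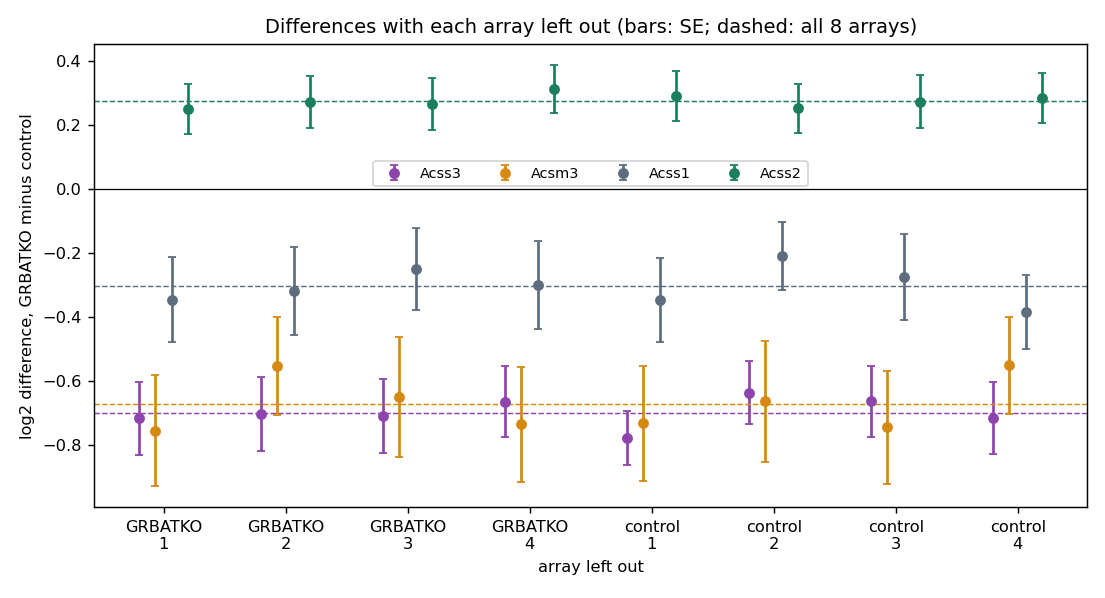
Log2 difference (GRBATKO minus control) of Acss3, Acsm3, Acss1 and Acss2 with each array left out in turn, with the SE as bars and the value over all 8 arrays as a dashed line. Acss2 stays between 0.25 and 0.31, and the other 3 stay below 0 throughout.

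Markers of other cells were compared beside these values. White adipocyte markers (7 genes, 4 of them with a higher mean in GRBATKO tissue, none past the threshold) averaged 5.76 to 6.26 in GRBATKO arrays and 5.55 to 6.04 in control arrays. Control 1 held the 6.04, the other 3 controls lay at or below 5.63, and control 1 was also the control lowest in Acss3. The median difference of the 7 markers was 0.043. The leptin gene Lep, 1 of them, named after its value was seen, differed by 0.98 (SE 0.41, limma adjusted p = 0.563) with overlapping groups. Without control 1, Acss3 differed by -0.78 and Acsm3 by -0.73. Skeletal muscle markers (15 genes) averaged 3.45 to 5.69 in GRBATKO and 3.62 to 7.21 in control arrays, with GRBATKO 4 and control 3 far above the rest. Of these 15 markers 14 had a lower mean in GRBATKO tissue, with a median difference of -0.67 and none past the threshold, and the other 3 GRBATKO arrays (3.45 to 3.51) lay below the other 3 controls (3.62 to 4.39). Without those 2 arrays Acss3 differed by -0.63, Acsm3 by -0.81, Acss1 by -0.27 and Acss2 by 0.31. Adjusted for the level of the muscle markers, Acss3 differed by -0.69. Endothelial markers (9 genes) averaged 8.24 to 8.37 in GRBATKO and 8.31 to 8.34 in control arrays. Brown adipocyte markers (9 genes) averaged 10.50 to 10.69 in GRBATKO and 10.51 to 10.76 in control arrays. The part of white adipocytes in the results was not tested.

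Acss3 and Acss1 varied together over the 8 arrays (Pearson r = 0.82) and, after each genotype's mean was taken out, still had r = 0.69, as a description over 8 arrays. In both genes the lowest controls were control 1 and control 4, whose arrays had a narrower spread between quartiles than the others. The part of array scaling in this r was not tested. Acsm3 had r = 0.77 with Acss3 over the same arrays but r = -0.03 once the genotype means were removed, so these 2 genes were ordered differently among mice of 1 genotype. Acss2 had r = -0.89, and -0.18 after removal. Of 17873 other named genes, those most like Acss3 over the 8 arrays were Prodh (r = 0.98), Ebf1 (r = 0.97), Prelid3b (r = 0.97), Cdkn1a (r = 0.96) and Rgcc (r = 0.96). Each had non-overlapping groups with a lower mean in GRBATKO tissue, which largely follows from picking them for likeness to Acss3 over the same arrays. The mean was lower by 1.08 for Prodh, which starts proline breakdown, and by 0.09 to 0.25 for Ebf1, Prelid3b and Rgcc. The cell cycle inhibitor Cdkn1a was lower by 0.97 (limma adjusted p = 0.00595, a call lost in 2 of 19 alternatives). With the genotype means removed, their r with Acss3 was 0.90 for Rgcc, 0.81 for Prodh, 0.80 for Prelid3b, 0.71 for Ebf1 and 0.62 for Cdkn1a. Among deviations from the genotype means, the closest were Pik3ip1, Rab3gap1, Eif2b1, Cask and Fam170b, with r from 0.98 to 0.99, and none of these was among the first 5. As the highest of 17873 values over 8 arrays, these r are a description only, and nothing is read from them.

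Genes that supply or use the same acyl-CoA pools were examined in 8 lists of 108 genes, of which 105 were measured and named. None of the 105 passed in limma, higher or lower. An unadjusted p under 0.05 was found for 10, against 8.62% of all probe sets. Non-overlapping groups were found for 12, 7 higher and 5 lower. Over all probe sets 3.22% lay wholly higher and 2.42% wholly lower. The lists were chosen with earlier results of these data known, so nothing is read from these shares. The median difference of the 105 was 0.00060.

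The other acyl-CoA synthetases were 15 genes that include the very long chain SLC27 family. They differed by -0.17 to 0.22, with a median of -0.07, and all 15 had overlapping groups. The Acsm and Acsbg genes among them and Slc27a3, Slc27a5 and Slc27a6 had group means from 2.01 to 3.60. Intensities this low lie near the 25th percentile of each array (2.84 to 3.05), so a difference could be missed there. Slc27a1, a fatty acid transporter of muscle and fat, read 9.56, 9.86, 9.95 and 9.74 in GRBATKO 1 to 4, against 9.48, 9.74, 9.33 and 9.67 in control 1 to 4. GRBATKO 1 lay within the controls. The difference was 0.22 (SE 0.12), and 0.15 without control 3.

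Propionyl-CoA, the product of Acss3 activity on propionate, is converted to succinyl-CoA by carboxylation, epimerisation and a cobalamin-dependent mutase. Of 8 genes of this route 4 had a higher and 4 a lower mean, with differences from -0.25 to 0.13 and a median of 0.010. The genes named next, Mcee, Pcca and Mmut, are all among those with a lower mean. Mcee, the epimerase, read 10.43, 10.60, 10.39 and 10.54 in GRBATKO 1 to 4, against 10.71, 10.84, 10.69 and 10.73 in control 1 to 4. Its groups did not overlap and its difference was -0.25 (SE 0.08, limma adjusted p = 0.442). Pcca, a subunit of the carboxylase, differed by -0.16 (SE 0.07, limma adjusted p = 0.573), with GRBATKO arrays from 10.90 to 11.04 and control arrays from 11.05 to 11.16. The mutase Mmut, named after its value was seen, differed by -0.12 (SE 0.07) and its groups overlapped. Branched-chain amino acid breakdown, another source of propionyl-CoA, had 7 of 17 genes with a higher mean and a median of -0.03, and its genes of smallest p were Ivd, a dehydrogenase of leucine breakdown (-0.20, SE 0.08), and the transaminase Bcat2 (-0.31, SE 0.14), both with overlapping groups. Bcat2 differed by -0.19 without control 2.

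Among 13 named genes of acetate transport and acetyl-CoA use, 9 had a higher mean. The monocarboxylate carrier Slc16a7 read 5.52, 5.87, 5.51 and 5.29 in GRBATKO 1 to 4, against 5.17, 4.94, 4.94 and 5.17 in control 1 to 4. It lay wholly above the controls, by 0.49 (SE 0.13, limma adjusted p = 0.344). Slc5a8, a sodium-coupled carrier of short chain fatty acids, differed by -0.29 (SE 0.13) at group means of 2.27 in GRBATKO and 2.55 in control tissue, and by -0.18 without control 1.

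Coenzyme A itself, the partner of every synthetase, is made from pantothenate, and pantothenate kinase catalyses the first step. Pank3, 1 of 4 kinase genes, read 9.41, 9.51, 9.54 and 9.5 in GRBATKO 1 to 4, against 9.17, 8.99, 8.93 and 9.10 in control 1 to 4. The groups did not overlap, and the difference was 0.44 (SE 0.08, limma adjusted p = 0.168), the smallest p of the 105 genes. It passed under a variance prior with an intensity trend (limma adjusted p = 0.0191) and in none of the other 18 settings. Slc25a42, the mitochondrial carrier of coenzyme A, lay wholly lower, by -0.23 (SE 0.08). The list of 11 had a median difference of 0.0049.

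Thioesterases undo the synthetase reaction by splitting acyl-CoA. Of 16 of them 10 had a lower mean, the lowest difference being that of Acot1 (-0.33, SE 0.23, overlapping groups; named after its value was seen), and the mitochondrial Acot2 differed by -0.16 (SE 0.07) with no overlap. Them4 differed by 0.18 (SE 0.11), and by 0.079 without control 4. Of 14 genes of acyl-CoA binding and the carnitine shuttle, 8 had a higher mean, and Acbd4, an acyl-CoA binding protein, differed by 0.22 (SE 0.08) with no overlap, and Acbd3 by 0.15 (SE 0.08), or 0.096 without GRBATKO 3. Of 11 named regulators of lipid gene transcription, 7 had a higher mean. Ppard, a nuclear receptor for fatty acids, read 7.04, 7.17, 7.13 and 7.20 in GRBATKO 1 to 4, against 7.56, 7.40, 7.48 and 7.41 in control 1 to 4, a difference of -0.33 (SE 0.07, limma adjusted p = 0.263). Insig1, which retains SREBP in the endoplasmic reticulum and is itself a target of it, read 11.45, 11.60, 11.56 and 11.22 in GRBATKO 1 to 4, against at most 11.21 in the controls, a difference of 0.38 (SE 0.10, limma adjusted p = 0.355). Acss2, Insig1 and the carrier Slc16a7 all had their lowest GRBATKO array in GRBATKO 4 and their highest control array in control 1. A shared cause was not tested.

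**Figure D4:**
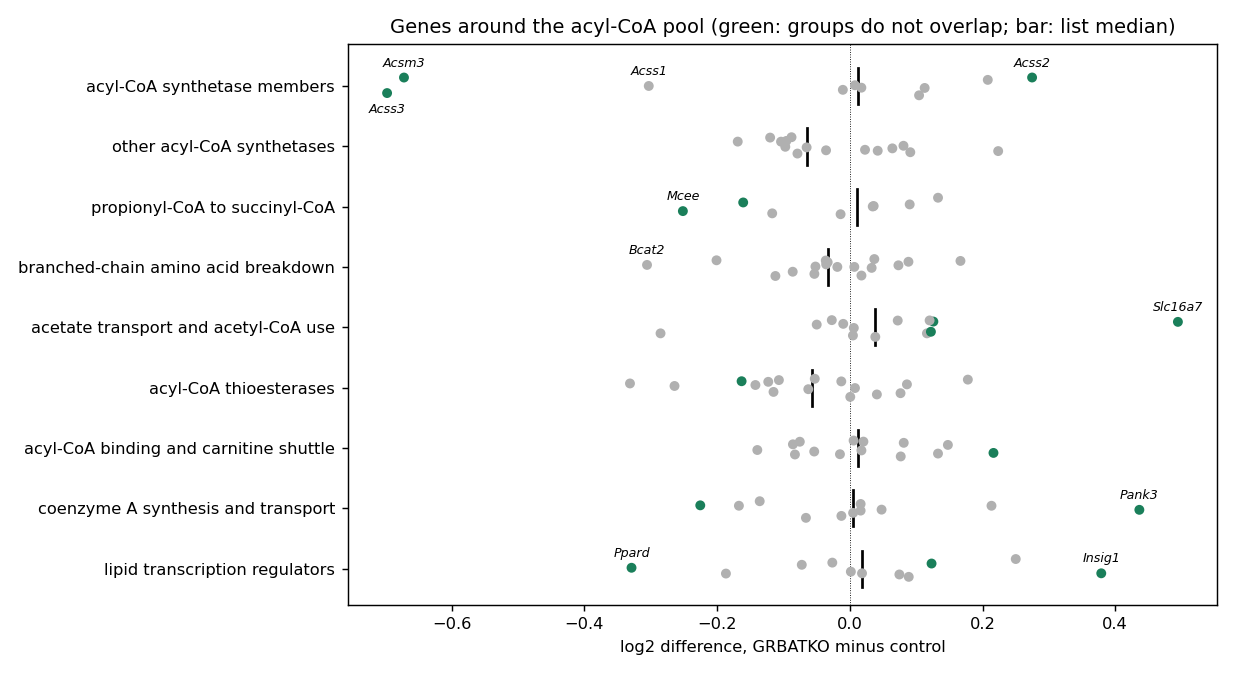
Log2 difference (GRBATKO minus control) of each gene in the member set and in 8 lists around the acyl-CoA pool, with green points where the genotypes do not overlap and a bar at each list's median. Acss3 and Acsm3 lie farthest left and Slc16a7 and Pank3, at 0.49 and 0.44, farthest right.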

How the data were processed

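Brown adipose tissue of 4 GRBATKO and 4 control mice was measured on 8 arrays. Values were summarised with RMA by the authors, per the submitters' processing notes; the deposited table holds 1 intensity per probe set and array on a linear scale, read from the values (2.07 to 9168). The sources used here name no RMA version, genome build or correction for batches. Array medians of log2 values lay between 4.42 and 4.44, but control 1 and control 4 had a narrower spread between quartiles. Their 25th percentiles were 3.03 and 3.05, against 2.84 to 2.90 in the other arrays. Their 75th percentiles were 6.56 and 6.59, against 6.67 to 6.71 in the others. With this pair left out, Acss3 differed by -0.84 and Acss1 by -0.49. Platform annotation named 20405 of 21115 probe sets; unlisted ones were tested but left unnamed, except Acsl1.

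Log2 values were fitted with limma 3.58.1 in R 4.3.3 (lmFit, eBayes, genotype as the only term) over all probe sets, with Benjamini-Hochberg adjustment and a threshold of 0.05. The pipeline was tested on simulated data. Members and gene lists were chosen with earlier results of these data known. Named were all members, Nr3c1, Ucp1, the 2 genes of smallest p in each list (up to 4 where any passed), the genes most like Acss3, its neighbours and the Acsm cluster; Mmut, Acot1 and Lep were added after their values were seen. Promoters came from RefSeq. Alternatives are given in the closing section. The number of arrays limits the precision.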

Additional observations from a re-analysis of the deposited data

Results flagged for a closer look

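In groups of 4 arrays, a value was singled out when its gap to the next, divided by the group's range, was above Dixon's 95% critical value. Of 96 groups examined 7 met this, and chance gives about 1 in 20. Acsl3 in GRBATKO tissue had a ratio of 0.844, from GRBATKO 4 at 8.91 against 8.80 to 8.81. In control tissue Pcca had 0.975, from control 4 at 11.05 against 11.15 to 11.16. Control 2 gave Acbd4 a ratio of 0.894 (7.03, against 7.23 to 7.25) and Pdilt 0.907 (2.18, against 2.46 to 2.49). The white adipocyte marker mean in controls had 0.83, from control 1 at 6.04 against 5.55 to 5.63. In GRBATKO tissue the skeletal muscle marker mean had 0.974, from GRBATKO 4 at 5.69 against 3.45 to 3.51, and the lymphocyte marker mean had 0.89, from GRBATKO 2 at 5.12 against 4.0 to 4.12.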

How the results depend on the processing

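Of 19 alternatives, 8 left out 1 array each. The count of probe sets past the threshold, 5 (1 higher, 4 lower), was 30 (18 and 12) with an intensity trend in the prior, 8 (2 and 6) after repeated quantile normalization, 14 (7 and 7) without dim probe sets, 3 without control 1 and control 4, 2 without control 3 and GRBATKO 4, and 3 to 5 with 1 array left out (3 without GRBATKO 2). Median centring gave 6 (2 and 4). Of the 10 members 1, Acss3, passed with the trend (adjusted p = 0.0147), quantile normalization (0.0350) or dim probe sets left out (0.0442, 12669 tested), and 0 with any array left out. Of the pathway genes 1, Pank3, passed with the trend, and 0 with any array left out. With the replicate number as a block, 1 probe set and 0 members passed. Deviations of same-numbered arrays correlated at -0.06 to 0.09, and 2 of 8 arrays correlated best with their own number. Same-numbered arrays also share an array column, and the labels do not say whether they share anything else. Nr3c1 did not pass with the replicate number as a block, without GRBATKO 2 or in either fit without a pair of arrays. Signs turned only for differences near 0. Acsm5 was 0.055 after quantile normalization, 0.056 with the muscle covariate and -0.090 to 0.087 with 1 array left out. Acsm4 was -0.052 with that covariate, -0.093 without control 3 and GRBATKO 4, and -0.098 to 0.16 with 1 left out. Acsm2 was -0.057 without that pair and -0.032 to 0.16 with 1 left out. Without control 1 and control 4, Ucp1 was -0.0033, Lin7a -0.093 and Pdilt 0.022. With 1 array left out, Acsl1 was -0.0077 to 0.039, Ucp1 -0.0016 to 0.033 and Myf5 -0.0091 to 0.065. The causes were not tested.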
